A study of Mus musculus with 40 samples.

Results

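The genes examined here are 10 genes of the response to IL-2, IL-7 and IL-15, and they were picked from the count table by their symbols. They are the cytokine gene Il15, the receptor genes Il15ra, Il2rb, Il2rg, Il7r, Il21r and Il4ra, the transcription factor gene Stat5a, and the feedback genes Cish and Socs2. All 10 were found among the 54087 genes of the table, and 10 of 10 passed the filter on low counts that 14760 genes passed. The rule that picks them uses symbols and no measured value.

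The RNA came from CT26 tumors of 40 mice. CT26 is a colon carcinoma line of the BALB/c strain, and each BALB/c mouse, 6 to 12 weeks old, received 1000000 cells under the skin. Monoclonal antibodies (mAbs) followed on days 6, 9 and 12, and RNA was taken from the tumors of day 13. There were 8 groups of 5 mice. The control group received an isotype control (motavizumab, mIgG2a). The monotherapy groups received anti-GARP:TGF-β1 WT (clone 58A2, mIgG2a), anti-GARP:TGF-β1 FcD (the same clone with an Fc part that does not bind Fc receptors), anti-TGF-β (clone 1D11) or anti-PD-1 FcS, whose Fc part is silent. The last groups received anti-PD-1 FcS together with anti-GARP:TGF-β1 WT (the WT combination), anti-GARP:TGF-β1 FcD (the FcD combination) or anti-TGF-β (the anti-TGF-β combination). GARP holds latent TGF-β1 on the surface of regulatory T cells, TGF-β1 and PD-1 both restrain T cells, and the comparisons ask what each mAb did to tumor RNA alone and with anti-PD-1.

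IL-2, IL-7, IL-15, IL-21 and IL-4 act through receptors that share the common γ chain, the product of Il2rg. Binding activates the kinases JAK1 and JAK3, which phosphorylate STAT proteins, STAT5 after IL-2, IL-7 and IL-15, STAT3 mainly after IL-21 and STAT6 after IL-4. These cytokines keep T cells and NK cells alive and dividing, and STAT5 switches on genes such as Cish that dampen the same signal.

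Library totals ran from 11931730 to 20680548 counts (median 14030511). Levels are given in CPM, the count scaled to the library's size after TMM normalization, and a mouse is named by its group and replicate number. Bulk RNA cannot tell apart fewer cells of a type and less RNA per cell. Y-linked transcripts were seen in the libraries with numbers 41 to 60, and Xist in those with 61 to 80. Each group has 2 or 3 mice in each of these library sets. In WT combination mouse 5, the summed level of 12 T cell marker genes was 422 CPM against 27.7 to 214 CPM in the other 39 mice, and the summed level of 6 myeloid marker genes was 7975 CPM against 1212 to 4175 CPM. Carcinoma epithelium markers were low in most tumors: their summed level over 5 genes had group medians from 9.66 to 27.5 CPM and single tumors reached 500 CPM, and Epcam was at 0 in 7 mice and Krt8 in 3.

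**Figure D1:**
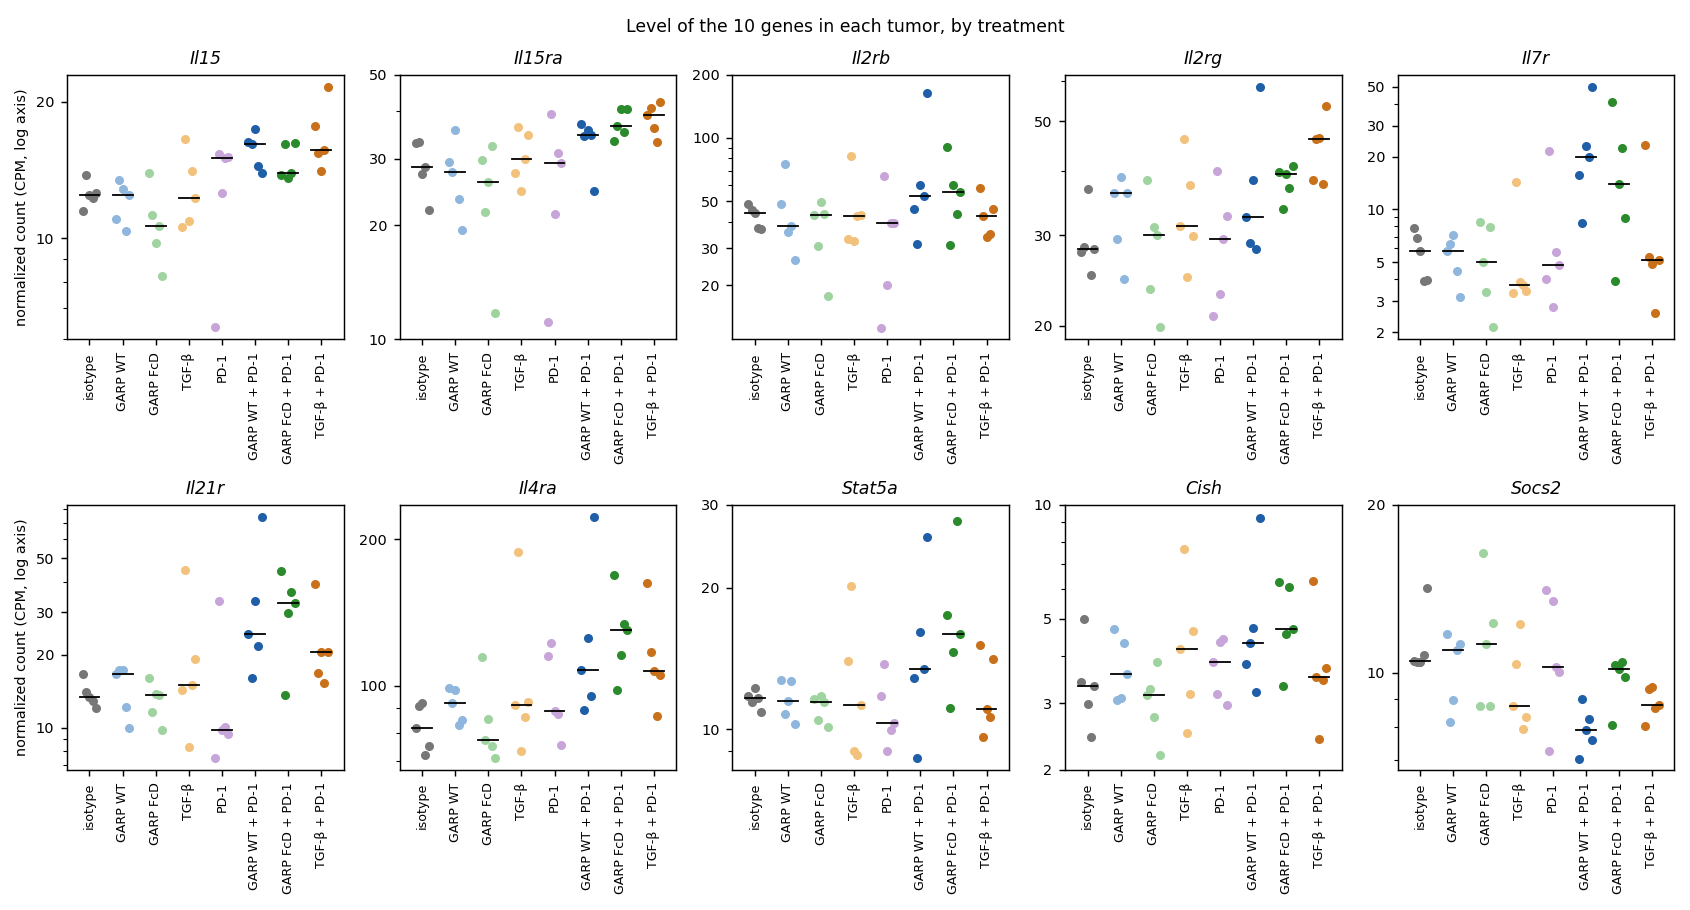
Normalized count (CPM, log axis) of each of the 10 genes in each of the 40 tumors, by treatment group. Points are mice and horizontal lines are group medians. Il7r and Il21r have their highest points in the combinations with anti-GARP:TGF-β1, at 50.2 and 74.1 CPM, and Socs2 has lower points in all 3 combinations than in the isotype control.

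No gene of the 10 reached an adjusted p under 0.05 in any of the 11 comparisons of 2 groups with edgeR's quasi-likelihood test, where 0% of the 14760 genes did so in 10 of the comparisons and 0.00678% (1 gene) in the anti-TGF-β combination against anti-PD-1. DESeq2's Wald test also gave no such gene among the 10. Its shares are over the genes that its own filter left with an adjusted p. In the anti-TGF-β combination it called 1.30% of 10674 genes against the isotype control and 0.881% of 8854 against anti-PD-1. Against the isotype control it called 0.0522% of 19142 genes in the FcD combination and 0.00320% of 31287 with anti-PD-1 alone. In the other 7 comparisons it called 0%. Its filter left 1 of the 10 (Cish) without an adjusted p in the anti-TGF-β combination against the isotype control. Against anti-PD-1 it left 5 (Il7r, Il15, Cish, Socs2 and Stat5a) without one in that combination. At an unadjusted p under 0.05, the WT combination had 5 of 10 genes higher than in the isotype control (Il7r, Il15, Il4ra, Il21r and Cish) and 1 lower (Socs2), against 13.2% and 7.47% of all genes tested. Without WT combination mouse 5, that comparison had 4 such genes in either direction, against 5.85% of all genes, and the counts of marker genes higher at that threshold went from 3 to 0 of 12 for T cells, from 6 to 0 of 6 for myeloid cells, from 2 to 0 of 5 for NK cells, from 3 to 0 of 4 for endothelium and from 2 to 0 of 5 for dendritic cells. The medians with that mouse were 0.94 for endothelium and 0.91 for dendritic cells, on the log2 scale. The part of these cells in the result was not tested. The FcD combination had 4 genes higher (Il7r, Il4ra, Il21r and Stat5a) and 0 lower, against 10.7% and 5.85% of all genes. In that comparison 5 of 5 carcinoma epithelium markers (median log2 fold change 3.30), 4 of 4 adipocyte markers (3.21), 3 of 4 neutrophil markers tested and 3 of 5 dendritic cell markers were also higher at that threshold. So were 2 of 3 keratinocyte markers tested (3.16) and 3 of 6 myeloid markers (0.61). Without FcD combination mouse 4 the epithelium and dendritic cell counts were 0, the adipocyte count was 1 and the neutrophil count 2, and the part of these cells in the result was not tested. In the anti-TGF-β combination, 3 genes were higher (Il2rg, Il15 and Il4ra) and 1 was lower (Socs2), against 8.49% and 11.6% of all genes. There 4 of 4 B cell markers (median log2 fold change 3.52), 3 of 4 neutrophil markers tested (1.94) and 2 of 5 NK cell markers (0.58) were higher at that threshold. The summed B cell level was 1.61 to 4.48 CPM in the isotype control and 3.51 to 84.4 CPM in the combination. Without anti-TGF-β combination mouse 5 the B cell count was 0, and the neutrophil count was 1 without mouse 3. The part of these cells in the result was not tested. With each monotherapy the count was 0 of 10 genes, against 0.969% of all genes with anti-GARP:TGF-β1 WT, 0.474% with anti-GARP:TGF-β1 FcD, 2.32% with anti-TGF-β and 0.955% with anti-PD-1. The median log2 fold change of the 10 genes was 0.48 in the WT combination, 0.47 in the FcD combination and 0.42 in the anti-TGF-β combination, where the median over all genes was 0.01, 0.00 and 0.02. It changed with single mice, and was 0.27 without WT combination mouse 5 and 0.16 without anti-TGF-β combination mouse 1, and at least 0.40 in the FcD combination whichever mouse was left out. In the monotherapies the median was 0.04, -0.08, 0.13 and 0.01, in the order above. All 7 comparisons use the same 5 isotype control mice.

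**Figure D2:**
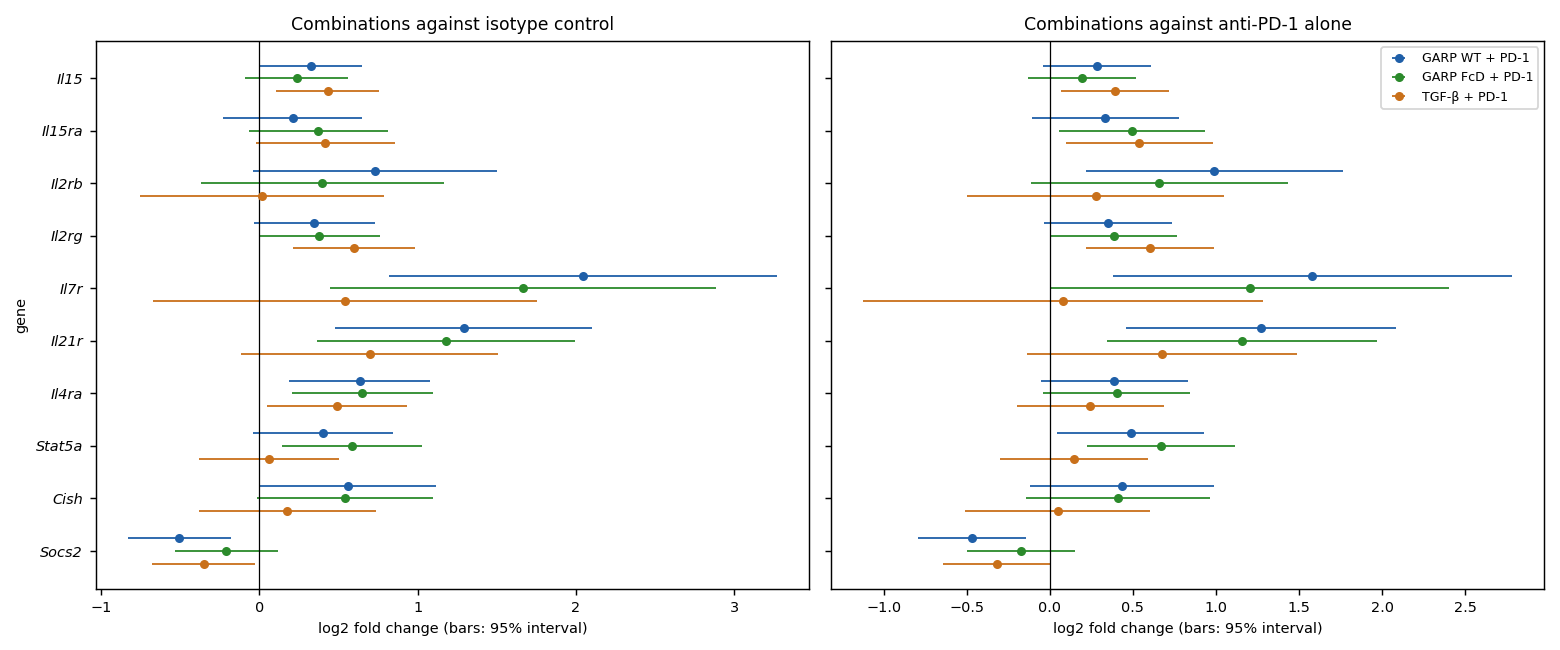
Log2 fold change of each gene in the 3 combinations, against the isotype control (left) and against anti-PD-1 alone (right). Points are edgeR estimates and bars are 95% intervals. Il7r has the largest estimates, 2.04 in the WT combination and 1.67 in the FcD combination against the isotype control, and Socs2 lies below 0 in each.

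In the test over all 8 groups, 8 of 10 genes reached an unadjusted p under 0.05, all but Il2rb and Cish, against 24.7% of all genes. The adjusted p was above 0.05 for each of the 10, with 0.0271% of all genes (4 genes) under it. Il7r had the smallest p of the 10 (unadjusted p = 0.000973, edgeR adjusted p = 0.118), ahead of Il21r (unadjusted p = 0.00242, edgeR adjusted p = 0.123).

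Il15, the cytokine that dendritic cells, macrophages and stromal cells present to T cells and NK cells, lies on chromosome 8 from 82331632 to 82403222 (GRCm38, minus strand). In the isotype control mice it was at 11.5, 13.8, 12.4, 12.3 and 12.6 CPM. In the WT combination mice it was at 16.3, 16.2, 17.5, 14.5 and 13.9 CPM, and in the anti-TGF-β combination mice at 17.7, 15.5, 14.1, 15.6 and 21.6 CPM. Every mouse of these 2 combinations was above every isotype control mouse, in the WT combination by the small gap between 13.9 and 13.8 CPM. In the anti-TGF-β combination the log2 fold change was 0.43 (SE 0.16) (unadjusted p = 0.0105, edgeR adjusted p = 0.158). For the WT combination it was 0.32 (SE 0.16, unadjusted p = 0.0496, edgeR adjusted p = 0.242). The FcD combination overlapped the controls, at 13.8, 16.1, 13.5, 14.0 and 16.3 CPM, with a log2 fold change of 0.23 (SE 0.16). The call at an unadjusted p under 0.05 was lost with 7 of the 10 mice left out in turn in the WT combination, and without anti-TGF-β combination mouse 5 (0.32) in the anti-TGF-β combination. The lowest of the 40 mice was anti-PD-1 mouse 1 at 6.35 CPM, ahead of an anti-GARP:TGF-β1 FcD mouse at 8.23 CPM. Within library sets, the WT combination exceeded the isotype control by 0.36 (libraries 41 to 60) and 0.29 (61 to 80) in mean log2 CPM, and the anti-TGF-β combination by 0.39 and 0.43.

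Il15ra, which encodes the high-affinity IL-15 receptor α chain that holds IL-15 on the presenting cell, lies on chromosome 2 from 11705290 to 11734317 (plus strand). Its isotype control values were 33.0, 33.1, 27.4, 28.4 and 22.0 CPM. The FcD combination values were 33.4, 36.5, 40.5, 35.3 and 40.5 CPM, and the anti-TGF-β combination values were 39.1, 40.8, 36.2, 33.3 and 42.4 CPM. Both sets lay above all isotype control mice, by little at their lower ends. The log2 fold changes were 0.37 (SE 0.22) and 0.42 (SE 0.22), with unadjusted p of 0.0951 and 0.0629. Against anti-PD-1 alone, where the level was 26.4 ± 10.6 CPM (SD, 5 mice) and mouse 1 stood at 11.2 CPM, the differences were 0.49 and 0.54. They were 0.29 and 0.35 without anti-PD-1 mouse 1. WT combination mice had Il15ra at 34.5 to 37.1 CPM in 4 mice and at 24.7 CPM in mouse 5, the mouse with the most T cell and myeloid RNA. Within library sets (41 to 60, then 61 to 80) Il15ra exceeded the isotype control by 0.15 and 0.55 in the FcD combination, by 0.27 and 0.52 in the anti-TGF-β combination and by 0.11 and 0.28 in the WT combination, in mean log2 CPM.

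Il2rb encodes the β chain that IL-2 and IL-15 receptors share, and is strong in NK cells and activated CD8+ T cells. The gene is on chromosome 15 from 78479256 to 78495271 (minus strand). It was at 48.8, 45.5, 44.2, 37.3 and 37.1 CPM in the isotype control mice and at 46.1, 31.3, 59.5, 52.8 and 163 CPM in the WT combination mice. Mouse 5 alone set the high mean of that group: the log2 fold change was 0.73 (SE 0.38, unadjusted p = 0.0625) with it and 0.15 without it. The difference changed sign within library sets, at -0.31 in libraries 41 to 60 and 1.02 in 61 to 80 (mean log2 CPM), the set that holds mouse 5. Anti-PD-1 alone gave 12.6, 65.7, 20.0, 39.7 and 39.7 CPM, with mice 1 and 3 below all isotype control mice and mouse 2 above them. Against that group the WT combination was higher by 0.99 (SE 0.38, unadjusted p = 0.0137, edgeR adjusted p = 0.233) on the log2 scale, and by 0.41 without WT combination mouse 5. The FcD combination was at 31.1 to 90.4 CPM and the anti-TGF-β combination at 33.7 to 57.9 CPM, both overlapping the controls.

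Il2rg, the gene of the common γ chain itself, is on chromosome X from 101264378 to 101268255 (minus strand). The isotype control values were 27.9, 28.5, 36.9, 25.1 and 28.2 CPM, and the anti-TGF-β combination values were 38.3, 46.1, 46.3, 37.8 and 53.5 CPM. All 5 mice of that combination were above all 5 controls. The difference was 0.60 on the log2 scale (SE 0.19, unadjusted p = 0.00313, edgeR adjusted p = 0.135). The adjusted p was 0.0299 without anti-TGF-β combination mouse 1 and 0.0442 without isotype control mouse 3, the highest of the controls, where 13.4% and 4.88% of all genes were under 0.05, so that the call depends on single mice. The WT and FcD combinations were at 37.3 ± 12.5 and 38.2 ± 2.86 CPM (SD, 5 mice each), against 29.3 ± 4.46 CPM in the isotype control. Within library sets the anti-TGF-β combination exceeded the isotype control by 0.58 and 0.61 in mean log2 CPM. Il2rg overlaps the annotated gene Gm20489 on the same strand, so its counts are uncertain to the extent that reads were shared.

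Il7r, the gene of the IL-7 receptor α chain, marks naive and memory T cells and innate lymphoid cells, and is on chromosome 15 from 9505788 to 9530176 (minus strand). Of the 10 genes it had the widest range over mice, with its highest level 23.6 times its lowest. The isotype control values were 7.79, 6.87, 5.76, 3.93 and 3.95 CPM. The WT combination values were 15.7, 8.32, 22.9, 19.9 and 50.2 CPM, each above all isotype control mice. In the FcD combination the values were 40.9, 3.92, 14.0, 22.3 and 8.96 CPM, so that 4 mice were above the controls and 1 was just below them. In log2, the WT combination was higher by 2.04 (SE 0.60, 95% interval 0.82 to 3.27) (unadjusted p = 0.00177, edgeR adjusted p = 0.159). It was 1.55 without WT combination mouse 5. In the FcD combination it was 1.67 (SE 0.60, unadjusted p = 0.00869, edgeR adjusted p = 0.237), and 1.12 (unadjusted p = 0.071) without FcD combination mouse 1. In the anti-TGF-β combination 4 mice were at 2.55 to 5.32 CPM and mouse 1 was at 23.4 CPM, and the log2 fold change of 0.54 (SE 0.60) turned to -0.32 without that mouse. Single high mice also stood out with anti-PD-1 alone, at 21.7 CPM against 2.78 to 5.75 CPM, and with anti-TGF-β alone, at 14.4 CPM against 3.34 to 3.87 CPM. Within library sets, the WT combination exceeded the isotype control by 0.63 (libraries 41 to 60) and by 2.63 (61 to 80) in mean log2 CPM, and the FcD combination by 0.84 and 1.63. The anti-TGF-β combination differed by 0.61 and -0.15.

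Il21r encodes the receptor chain for IL-21, found on T, B and NK cells and on some myeloid cells, and lies on chromosome 7 from 125603429 to 125633570 (plus strand), next to Il4ra. In the isotype control mice it was at 16.7, 14.1, 13.5, 12.9 and 12.1 CPM. The WT combination gave 24.4, 16.1, 33.3, 21.7 and 74.1 CPM, and the FcD combination gave 44.4, 13.6, 29.7, 36.5 and 32.7 CPM. In each of these groups mouse 2 was within the range of the controls and the other 4 mice were above it. The log2 fold change was 1.29 (SE 0.40, unadjusted p = 0.00275, edgeR adjusted p = 0.159) in the WT combination and 0.78 without its mouse 5. It was 1.18 (SE 0.40, unadjusted p = 0.00573, edgeR adjusted p = 0.235) in the FcD combination. Against anti-PD-1 alone, at 7.53, 33.2, 9.84, 10.1 and 9.45 CPM, the differences were 1.27 in the WT combination and 1.16 in the FcD combination. The difference in the WT combination was 0.76 (unadjusted p = 0.0508) without WT combination mouse 5. Without anti-PD-1 mouse 2, the high mouse of that group, the differences were 1.88 (edgeR adjusted p = 0.0414, with 3.60% of all genes under 0.05) and 1.76 (edgeR adjusted p = 0.142). The anti-TGF-β combination was higher than the isotype control by 0.70 (SE 0.40, unadjusted p = 0.0903), and by 0.41 (unadjusted p = 0.318) without its mouse 1, which stood at 39.1 CPM. Within library sets the WT combination exceeded the isotype control by 0.37 and 1.55, and the FcD combination by 0.77 and 1.42, in mean log2 CPM.

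Il4ra encodes the α chain of the IL-4 and IL-13 receptors, present on lymphocytes, myeloid cells and many tumor cells. It lies on chromosome 7 from 125552120 to 125579474 (plus strand). Isotype control mice were at 81.8, 90.9, 92.1, 72.1 and 75.0 CPM, and FcD combination mice at 169, 98.1, 116, 134 and 130 CPM, all above the controls. The log2 fold change in the FcD combination was 0.65 (SE 0.22, unadjusted p = 0.00529, edgeR adjusted p = 0.235). WT combination mice were at 108, 89.0, 125, 95.3 and 222 CPM, and the log2 fold change was 0.63 (SE 0.22, unadjusted p = 0.00641, edgeR adjusted p = 0.159) with mouse 5 and 0.34 (unadjusted p = 0.0971) without it. The anti-TGF-β combination was at 86.6 to 162 CPM, with a log2 fold change of 0.49 (SE 0.22, unadjusted p = 0.0315, edgeR adjusted p = 0.212). It was 0.35 (unadjusted p = 0.128) without anti-TGF-β combination mouse 1, and the call was lost with 3 of the 10 mice left out in turn. Within library sets (41 to 60, then 61 to 80) Il4ra exceeded the isotype control by 0.18 and 0.80 in the WT combination, by 0.53 and 0.73 in the FcD combination and by 0.68 and 0.32 in the anti-TGF-β combination, in mean log2 CPM. With anti-TGF-β alone, mouse 2 stood at 188 CPM and the other 4 at 73.4 to 92.6 CPM.

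Stat5a, one of the paired STAT5 genes, lies on chromosome 11 from 100859351 to 100885169 (plus strand). Its isotype control values were close together, at 11.7, 11.4, 12.2, 11.6 and 10.9 CPM. The FcD combination values were 17.5, 11.1, 14.6, 27.8 and 15.9 CPM, with 4 of 5 mice above all controls. That gave a log2 fold change of 0.59 (SE 0.22, unadjusted p = 0.0108, edgeR adjusted p = 0.240), and 0.35 (unadjusted p = 0.106) without FcD combination mouse 4. WT combination mice were at 12.8, 8.68, 16.1, 13.4 and 25.6 CPM, with a log2 fold change of 0.40 (SE 0.22, unadjusted p = 0.0718) that was 0.14 without mouse 5. Within library sets that difference changed sign, at -0.13 in libraries 41 to 60 and 0.61 in 61 to 80 (mean log2 CPM), and the difference in the FcD combination was 0.29 and 0.86. The anti-TGF-β combination was at 9.61 to 15.1 CPM with a log2 fold change of 0.06 (SE 0.22). FcD combination mouse 4, the highest in Stat5a, also had the highest summed level of carcinoma epithelium markers, 500 CPM, and WT combination mouse 5 the next highest, 235 CPM. The part of those cells in the result was not tested. Stat5a overlaps Stat3 on the opposite strand, Il4ra overlaps Gm44876 and Cish overlaps Gm17040 and Gm17041 in the same way. The strand setting of the counting is not given in the sources used here.

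Cish encodes a SOCS family inhibitor that STAT5 induces and that binds cytokine receptors. The gene is on chromosome 9 from 107296026 to 107302784 (plus strand). Isotype control values were 3.40, 5.01, 2.99, 2.44 and 3.33 CPM, and WT combination values were 3.79, 4.31, 4.74, 3.21 and 9.21 CPM, with overlap in 4 of the 5 mice. Its log2 fold change was 0.56 (SE 0.27, unadjusted p = 0.0476, edgeR adjusted p = 0.238), and 0.23 (unadjusted p = 0.384) without WT combination mouse 5. The call was lost with 6 of the 10 mice left out in turn. Within library sets the difference did not hold, at -0.03 in libraries 41 to 60 and 0.82 in 61 to 80 (mean log2 CPM). FcD combination values were 6.27, 3.32, 4.57, 6.07 and 4.71 CPM, with a log2 fold change of 0.54 (SE 0.27, unadjusted p = 0.0565). In the anti-TGF-β combination it was 0.18 (SE 0.28), and -0.06 without anti-TGF-β combination mouse 1. The FcD combination differed by 0.14 and 0.86 within library sets and the anti-TGF-β combination by 0.18 and 0.11.

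STAT5 dimers bind DNA at the letters TTCNNNGAA, and RefSeq promoter windows (GRCm38.p6, 250 bases before to 50 after the start) were found for 7 of the 10 genes, all but Il2rb, Il15 and Socs2. The motif reads the same on both strands. Cish and Il7r held it, and Il15ra, Il4ra, Il21r, Stat5a and Il2rg did not. Of all 32851 windows, 8.30% held it, and 0.457% held it at least 2 times. Cish has 2 copies, shown here with the motif in capitals because they lie at the start of the STAT5-induced gene of the list, at chr9:107296655-107296682 on the plus strand, in sequence that GENCODE annotates as exon. Il7r, the gene with the largest estimates, has 1 copy at chr15:9530002-9530026 on the minus strand, upstream of the RefSeq start of its window but inside the span that GENCODE gives the gene, in none of its annotated exons.
Cish: agttTTCCTGGAAagTTCTTGGAAatct
Il7r: tcaggagcTTCAGGGAAtaccaaga

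Socs2, an inhibitor best known for dampening growth hormone signalling and also induced through STAT5, had estimates of the opposite sign to those of Cish in each combination, although in the anti-TGF-β combination both were negative without mouse 1. It lies on chromosome 10 from 95385362 to 95417180 (minus strand). Isotype control values were 10.5, 10.5, 10.5, 10.8 and 14.2 CPM. The WT combination values were 7.0, 8.99, 7.91, 8.26 and 7.59 CPM, and the anti-TGF-β combination values were 8.03, 9.35, 9.45, 8.65 and 8.75 CPM. The FcD combination values were 8.07, 10.3, 10.2, 10.5 and 9.82 CPM. Every mouse of the 3 combinations lay below every isotype control mouse, in the FcD combination by a very small gap. The log2 fold change was -0.50 (SE 0.16, unadjusted p = 0.00326, edgeR adjusted p = 0.159) in the WT combination. It was -0.35 (SE 0.16, unadjusted p = 0.0348, edgeR adjusted p = 0.219) in the anti-TGF-β combination and -0.21 (SE 0.16, unadjusted p = 0.201) in the FcD combination. Without isotype control mouse 5, the highest control, these were -0.41, -0.25 (unadjusted p = 0.139) and -0.11. The call in the anti-TGF-β combination was lost with 4 of the 10 mice left out in turn. Without WT combination mouse 5 the first was -0.49, so that this gene did not rest on that mouse. Within library sets the WT combination was below the isotype control by a mean log2 CPM difference of -0.40 and -0.56, the anti-TGF-β combination by -0.27 and -0.38 and the FcD combination by -0.14 and -0.21.

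Groups that do not overlap can be counted over the whole table. Against the isotype control, Il7r and Il15 were above all controls in the WT combination (1.35% of all genes), Il15ra and Il4ra in the FcD combination (1.96%), and Il2rg, Il15 and Il15ra in the anti-TGF-β combination (1.73%). Socs2 was below all controls in each, where 1.62%, 1.29% and 1.29% of all genes were.

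Against anti-PD-1 alone, the WT combination had 4 of 10 genes higher at an unadjusted p under 0.05 (Il7r, Il2rb, Il21r and Stat5a) and 1 lower (Socs2), against 11.2% and 5.99% of all genes. Without WT combination mouse 5 the count in that comparison was 1 of 10 in either direction, against 5.42% of all genes. Marker genes moved with these genes there, with 11 of 12 T cell, 4 of 5 NK cell and 6 of 6 myeloid genes higher at that threshold, and 0 of each without that mouse. With that mouse, 2 of 3 regulatory T cell and 2 of 5 dendritic cell markers were higher too. The FcD combination had 4 higher (Il7r, Il15ra, Il21r and Stat5a) and 0 lower, against 6.46% and 4.27%, and there 3 of 5 carcinoma epithelium, 2 of 4 neutrophil, 2 of 5 dendritic cell, 2 of 6 myeloid, 1 of 5 NK cell, 1 of 3 regulatory T cell and 0 of 12 T cell markers were higher. Without FcD combination mouse 4 the epithelium, neutrophil and dendritic cell counts were 0, and the median log2 fold change of the epithelium markers went from 2.91 to 0.03. In the anti-TGF-β combination, 3 were higher (Il2rg, Il15 and Il15ra) and 0 lower, against 7.0% and 10.1%, and 2 of 5 NK cell and 1 of 12 T cell markers were higher. Skeletal muscle markers were lower in 4 of 4 tested in each of the 3 comparisons (median log2 fold changes -4.08, -3.73 and -4.34), and in 0 of 4 without anti-PD-1 mouse 2. Their sum was 2.36 to 159 CPM in the anti-PD-1 group. The part of these cells in the results was not tested. Il7r was higher in the WT combination by 1.58 (SE 0.59, unadjusted p = 0.0114, edgeR adjusted p = 0.231) and in the FcD combination by 1.20 (SE 0.59, unadjusted p = 0.0485, edgeR adjusted p = 0.458). These were 1.09 (unadjusted p = 0.0725) without WT combination mouse 5 and 0.65 (unadjusted p = 0.282) without FcD combination mouse 1, and 2.43 and 2.05 without anti-PD-1 mouse 2. The anti-TGF-β combination differed in Il7r by 0.08 (SE 0.59), by -0.79 without its mouse 1 and by 0.93 without anti-PD-1 mouse 2. Stat5a differed by 0.67 (SE 0.22, unadjusted p = 0.00426, edgeR adjusted p = 0.458) in the FcD combination, and by 0.43 (unadjusted p = 0.0504) without FcD combination mouse 4. In the WT combination Stat5a differed by 0.49, and by 0.22 without WT combination mouse 5, and it did not hold within library sets, at -0.10 in libraries 41 to 60 and 0.80 in 61 to 80 (mean log2 CPM). Il15 differed by 0.39 in the anti-TGF-β combination, and by 0.22 without anti-PD-1 mouse 1. Socs2 differed by -0.47 (SE 0.16, unadjusted p = 0.00577, edgeR adjusted p = 0.231) in the WT combination. The groups overlapped for each of the 10 genes in each of these comparisons.

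The WT and FcD combinations, which differ only in whether the Fc part of anti-GARP:TGF-β1 binds its receptors, showed 0 of 10 genes with an unadjusted p under 0.05, against 1.30% of all genes. The difference (FcD minus WT) was -0.38 for Il7r with a 95% interval from -1.54 to 0.79, so that sizeable differences in either direction remain within the error. For Socs2 it was 0.30, with an interval from -0.03 to 0.62, and for Il4ra 0.02, with an interval from -0.42 to 0.46. Without WT combination mouse 5 these were 0.11 for Il7r and 0.31 for Il4ra, and without FcD combination mouse 1 they were -0.93 and -0.10. Over the mice left out, the value of Socs2 ran from 0.25 to 0.36.

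The interaction asks whether a mAb changed a gene more with anti-PD-1 than without it. For Il21r the difference of differences was 1.18 (SE 0.56, unadjusted p = 0.0432, edgeR adjusted p = 0.483) with anti-GARP:TGF-β1 WT. With anti-GARP:TGF-β1 FcD it was 1.25 (SE 0.57, unadjusted p = 0.0335, edgeR adjusted p = 0.787) for Il21r, 0.74 (SE 0.31) for Il15ra and 0.73 (SE 0.31) for Stat5a. Those are 1 of 10 genes at an unadjusted p under 0.05 against 8.75% of all genes, and 3 of 10 against 4.49%. With anti-TGF-β it was 0 of 10 against 2.30%. The adjusted p was under 0.05 for 0% of all genes with each mAb. The Il21r value was 0.68 without WT combination mouse 5 for the WT mAb, and the Stat5a value was 0.49 without FcD combination mouse 4. Of the 20 mice behind each, the unadjusted call was lost with 11 of them left out in turn for Il21r with the WT mAb, 8 for Il21r with the FcD mAb, 2 for Il15ra and 1 for Stat5a.

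Levels of different genes were set side by side per kb of exon, in CPM per kb, over all 40 mice. Il4ra was highest at 17.4 ± 5.45, ahead of Il2rg at 14.4 ± 3.55 and Il2rb at 11.0 ± 5.73. Il15ra (6.92 ± 1.67), Il21r (6.16 ± 3.97) and Il15 (5.99 ± 1.24) came next, followed by Il7r (2.14 ± 2.22), Stat5a (1.80 ± 0.566), Socs2 (1.05 ± 0.216) and Cish (0.629 ± 0.223), all as mean ± SD in CPM per kb. Neighbours from Il4ra down to Il15 lay within 1 SD of each other, as did Il7r and Stat5a, whereas Il15 and Il7r, Stat5a and Socs2, and Socs2 and Cish were further apart than that. Il21r was above Il15 per kb in 13 of 40 mice although its mean was higher. In the same way, Il7r was above Stat5a in 14 of 40 mice. In the isotype control the mean of Il7r was 1.21 CPM per kb and that of Stat5a 1.62. Lengths cover every annotated exon, so a gene with long, rarely used exons appears lower.

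**Figure D3:**
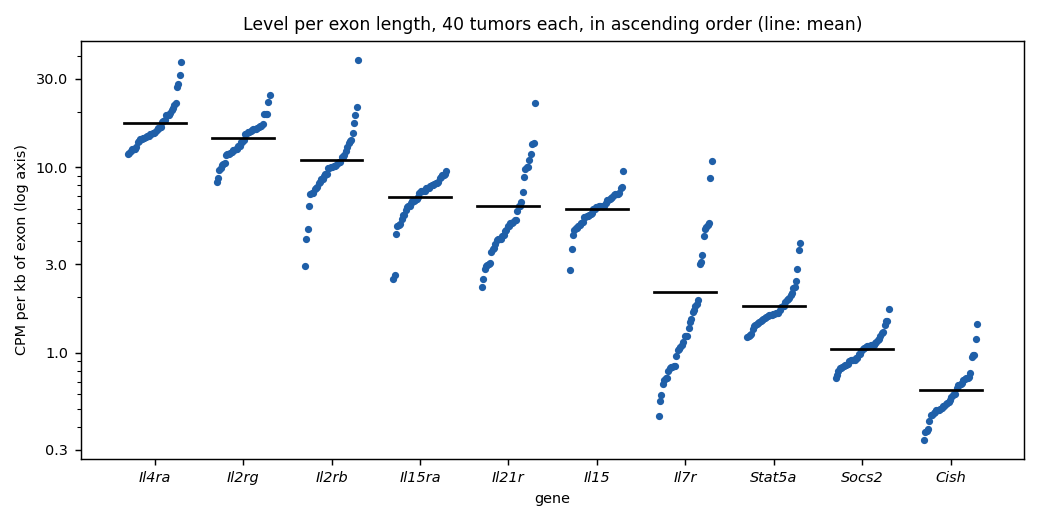
CPM per kb of exon (log axis) of the 10 genes in the 40 tumors, ordered by mean. Points are mice in ascending order and lines are means. Il4ra has the highest mean, 17.4, and Cish the lowest, 0.629, and Il7r spans the widest range.

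Genes that vary together from mouse to mouse within groups were looked for in all 45 pairs, on log2 CPM after taking away each group's mean, with permutations within groups and adjustment over the 45 pairs. Pearson's r had an adjusted p under 0.05 in 32 pairs, 27 of them positive, and in 31 of the 32 Spearman's rho did too. Pairs of other genes were not tested, so the count cannot show whether these genes differ from others in this. Il7r and Il21r had the highest r, 0.86 (rho 0.80, permutation p = 1e-05 for both, the smallest that 100000 permutations can give, adjusted p = 6e-05 and 0.00011). It was 0.83 without the 2 mice farthest from the median of Il7r, 0.91 within libraries 41 to 60 and 0.75 within 61 to 80. Il21r also went with Il4ra (r = 0.84, rho 0.76, permutation p = 1e-05 for both, 0.76 without the 2 farthest mice) and with Il2rb (r = 0.82, rho 0.74, permutation p = 1e-05 for both, 0.79 without them).

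Il15 and Il15ra went together at r = 0.73 (rho 0.57, permutation p = 0.00022 and 0.00105, adjusted p = 0.0009 and 0.00381), and at 0.59 without the 2 mice farthest from the median of Il15. With Stat5a, r was 0.03 for Il15 (rho 0.02, permutation p = 0.851 and 0.895) and 0.06 for Il15ra (rho 0.17, permutation p = 0.667 and 0.294). Il15ra also went with Il2rb (r = 0.54), Il2rg (0.48), Il7r (0.39) and Il21r (0.38), and Il15 with Il2rg (0.52) and Il2rb (0.47). Each of these r had an adjusted p under 0.05. With Il4ra, r was 0.08 for Il15ra and 0.11 for Il15, and Il15 had 0.26 with Il7r and 0.32 with Il21r. Socs2 had a negative r with each of the other 9 genes. The largest was with Il15ra, at -0.59 (rho -0.55, permutation p = 0.00671 and 0.00337, adjusted p = 0.0112 and 0.00783) and -0.58 without the 2 mice farthest from the median of Il15ra. With Cish, the other feedback gene, r was -0.04 (rho -0.02, permutation p = 0.795 and 0.888).

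**Figure D4:**
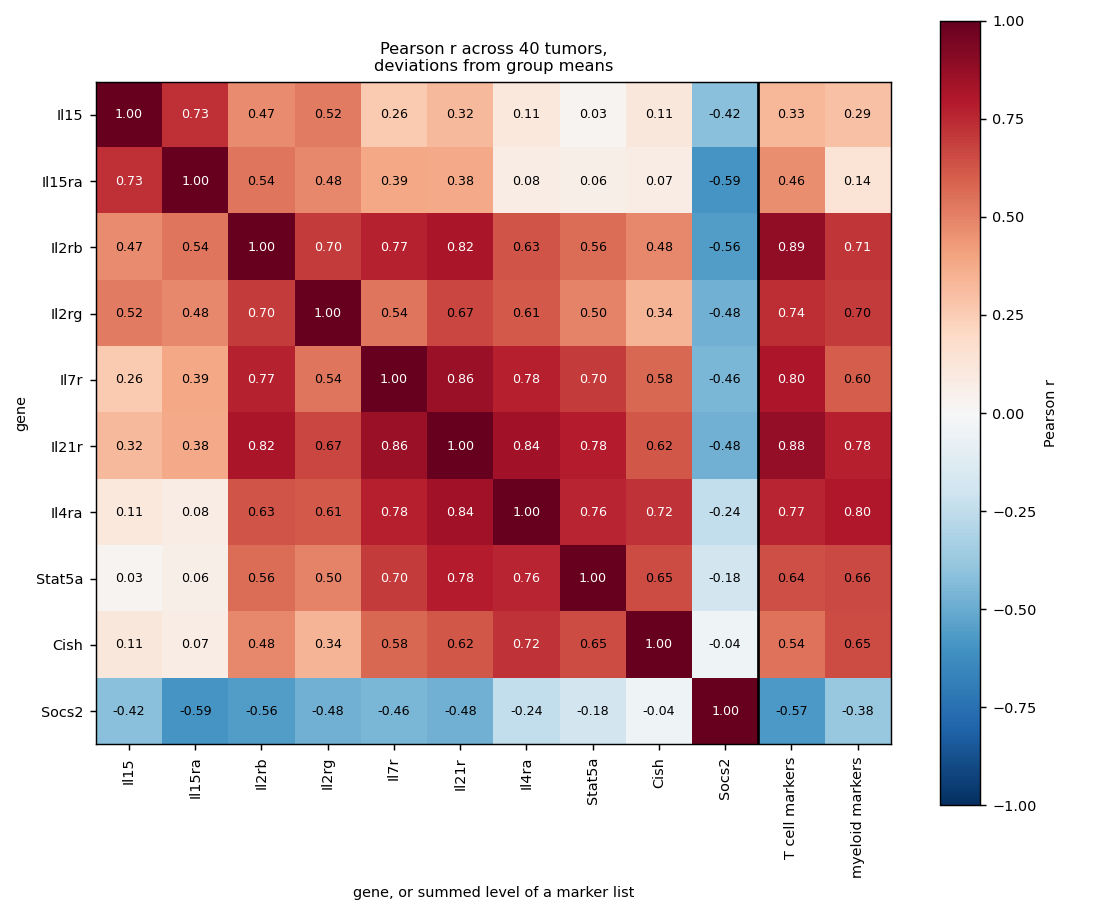
Pearson r of the 10 genes with each other and with the summed level of T cell and myeloid marker genes, across 40 tumors, as deviations of log2 levels from group means. Red is positive and blue negative. The receptor genes apart from Il15ra form a red block with Stat5a and Cish, palest at 0.34 for Il2rg and Cish. Il15 and Il15ra have r of 0.73 with each other and of 0.03 and 0.06 with Stat5a. Il15ra also has r of 0.38 to 0.54 with Il21r, Il7r, Il2rg and Il2rb. The row of Socs2 is blue.

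The marker levels move with these genes. Across mice, as deviations from group means, the summed T cell markers went with Il2rb at r = 0.89 (rho 0.88), with Il21r at 0.88 (rho 0.86) and with Il7r at 0.80 (rho 0.77), each with a permutation p of 1e-05 for r and rho, and adjusted p of 4e-05 and 7e-05 over 20 relations, a set added after seeing the data. Without the 2 mice farthest from the median of the markers, these r were 0.84, 0.83 and 0.76. Within libraries 41 to 60 and 61 to 80 they were 0.91 and 0.88 for Il2rb. Il4ra went with the summed myeloid markers at 0.80 (rho 0.66, permutation p = 2e-05 and 0.00013) and at 0.66 without the 2 farthest mice. It went with the T cell markers at much the same r, 0.77 (rho 0.66), and at 0.69 without the 2 farthest mice. Il21r, Il2rb and Il2rg also went with the myeloid markers, at 0.78, 0.71 and 0.70. For Socs2 and the T cell markers r was -0.57 (rho -0.62, permutation p = 0.00033 and 0.00019) and -0.55 without the 2 farthest mice. For Il15 it was 0.33 (rho 0.35, permutation p = 0.0736 and 0.0476, adjusted p = 0.0774 and 0.0528) and 0.39 without them. For Il15ra it was 0.46 (rho 0.58, permutation p = 0.00723 and 0.00036) and 0.58 without them. The group medians of the summed T cell markers were 80.5 CPM in the isotype control, 80.3 CPM in the WT combination, 90.3 CPM in the FcD combination and 72.7 CPM in the anti-TGF-β combination, and 43.6 CPM with anti-PD-1 alone. The ranges were 46.8 to 107, 50.7 to 422, 53.7 to 182, 48.3 to 124 and 27.7 to 128 CPM, and each of the 12 genes had at least 10 counts in every mouse. Of these 12 genes, 3 were higher in the WT combination than in the isotype control at an unadjusted p under 0.05, 1 in the FcD combination and 1 in the anti-TGF-β combination. For the 6 myeloid genes the counts were 6, 3 and 0, with medians of 2049 CPM in the isotype control and 2362, 2968 and 2391 CPM in the combinations. The part of these cells in the results was not tested.

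**Figure D5:**
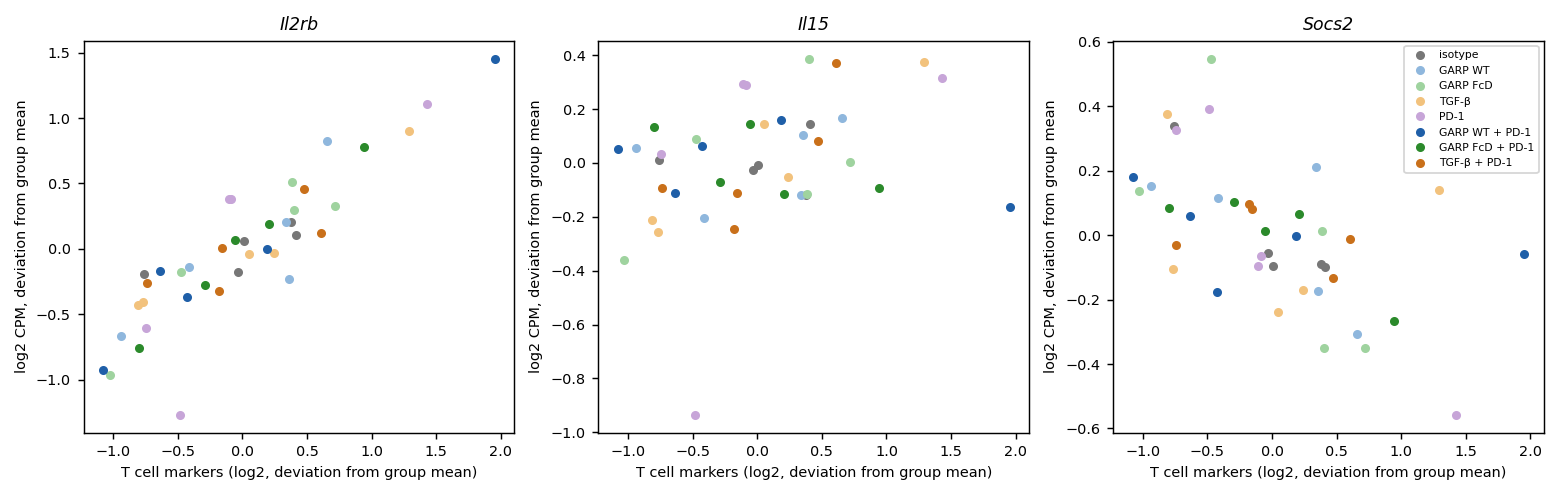
Log2 CPM of Il2rb, Il15 and Socs2 against the summed level of 12 T cell marker genes, both as deviations from the group mean, in 40 tumors coloured by group. Il2rb lies along a rising band (r = 0.89), Il15 scatters widely (r = 0.33) and Socs2 slopes down (r = -0.57).

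As a description of likeness over the 40 mice, without groups taken away, 2 or 3 of the 3 genes of the table with the highest Spearman's rho of log2 CPM are named for each gene. For Il2rb these were Cyfip2 (rho 0.94) and Sytl2 (0.91). For Il21r they were Vav1 (0.95), a signalling protein of blood cells, Shtn1 (0.94) and Sdc3 (0.94). Il15 had the interferon-induced genes Ifi204 (0.86), Gbp3 (0.84) and Igtp (0.84), and Il15ra had RP24-499A8.3 (0.91), Igtp (0.90) and Ly6a (0.89). Il2rg had Tmem106a, Lst1 and Ifi30 (0.92 for each), and Il7r had Gpr35, Nos2, the inducible nitric oxide synthase, and Pfkp (0.89 for each). For Il4ra they were Pdlim4 (0.91), Lbh (0.90) and Anxa6 (0.90), and for Stat5a Vangl2 (0.81) and Anpep (0.81). Cish had Maob and C3, a complement gene (0.75 for each), and Socs2 had Bbs4 (0.73), Soat2 (0.72) and Efcab2 (0.71). These 40 values share libraries and depth, and no test was made.

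Of 35 other genes of the pathway, 27 passed the filter. The cytokine genes Il2, Il4, Il9, Il13, Il21, Tslp and Lta and the receptor gene Il9r did not: Il9 had 0 counts in all 40 mice, which allows up to 0.251 CPM in the shallowest library by counting error alone, and Il2 and Il21 had at most 2 counts in any mouse. Il2 and Il21 were thus at or near the limit of detection in each tumor, where Il2rb was at 12.6 CPM or more. Of the 27, 9 were higher in the WT combination than in the isotype control at an unadjusted p under 0.05 and 1 lower, against 13.2% and 7.47% of all genes. Without WT combination mouse 5 the counts were 4 and 0 of 28, against 5.85% of all genes in either direction. Gzmb, the killing protease of cytotoxic cells, was higher by 1.39 (SE 0.40, unadjusted p = 0.00137, edgeR adjusted p = 0.159), Pim1, a kinase that STAT5 induces, by 0.48 (SE 0.14), Socs1, an inhibitor of JAK kinases, by 0.56 (SE 0.21), and Stat3 by 0.38 (SE 0.14), all on the log2 scale. Myc was lower by a log2 fold change of -0.32 (SE 0.14). Without WT combination mouse 5, these were 1.04 for Gzmb, 0.35 for Pim1, 0.26 for Stat3 and -0.19 for Myc, the last 2 with an unadjusted p above 0.05.

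In the FcD combination 3 of 28 were higher without its mouse 1, for which no share of all genes is given here. With all mice, 8 of the 27 were higher and 0 lower, against 10.7% and 5.85% of all genes. They were led by Socs1 (0.75, SE 0.21, unadjusted p = 0.00086, edgeR adjusted p = 0.225), Pim1 (0.49, SE 0.14), Socs3 (0.40, SE 0.12) and Gzmb (1.06, SE 0.40). Gzmb was at 0.78 (unadjusted p = 0.0641) without FcD combination mouse 1. The anti-TGF-β combination had 9 higher and 1 lower, against 8.49% and 11.6%. Socs1 was higher by 0.82 (SE 0.21, unadjusted p = 0.000354, edgeR adjusted p = 0.106), and Ccnd3, which encodes cyclin D3, by 0.32 (SE 0.11). Without anti-TGF-β combination mouse 1 these had an edgeR adjusted p of 0.0167 and 0.0216, with 13.4% of all genes under 0.05. Socs3 was higher by 0.35 (SE 0.12), and Stat6 was lower with -0.14 (SE 0.07), a call lost with 8 of the 10 mice left out in turn. Il2ra, the gene of the α chain that makes the IL-2 receptor high-affinity, was at 3.74 CPM in the isotype control mean and 7.81 CPM in the WT combination, a log2 difference of 1.06 (SE 0.40, unadjusted p = 0.0117, edgeR adjusted p = 0.164). It was 0.85 without WT combination mouse 5. In the same comparison 3 of 3 regulatory T cell markers were higher at an unadjusted p under 0.05 (median log2 fold change 1.49), and 1 of 3 without that mouse, and their part in the result was not tested. Il2ra is named here because it completes the IL-2 receptor, chosen after its values were seen. Socs1 lay above all isotype control values in the FcD and anti-TGF-β combinations, with lowest values of 33.8 and 33.5 CPM against a highest control of 31.8 CPM.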

How the data were processed

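Tumor RNA libraries (TruSeq Stranded mRNA, paired-end reads) of 40 mice were examined, 5 mice per group, each mouse a separate sample. The authors deposited raw counts of reads per gene for 54087 genes, without normalization. The submitters' processing notes name STAR 2.5.3a, SAMtools 1.6, HTSeq 0.9.1 and GRCm38. All 40 columns were used and 0 columns of other samples were left out. Pairs of mice of a group differed beyond counting error (lowest chi-square per degree of freedom 5.44, 80 pairs).

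Counts were filtered with filterByExpr and scaled with TMM in edgeR 4.0.16 (R 4.3.3), and 11 comparisons of 2 groups, 3 interactions and 1 test over all groups came from 1 robust quasi-likelihood model of all 40 mice, with Benjamini-Hochberg adjustment over 14760 genes. Tests were 2-sided. For SE, the log2 fold change was taken over sqrt(F). log2 CPM used a prior count of 2. Correlations used 100000 permutations within groups (Python 3.11.15, numpy 2.4.6, scipy 1.17.1). The code was tested on simulated data. As alternatives, fits used size factors of DESeq2, all genes without filter, the Wald test of DESeq2 1.42.0, only the 2 groups compared, library set as a covariate, and each mouse left out. Leaving out each mouse for interactions, medians, pathway genes and marker counts was added after seeing the data. Other pathway genes were named by a rule: those under the filter and, per combination against the isotype control, up to 4 in each direction with the smallest unadjusted p under 0.05. The 3 genes most like each gene were those with the highest Spearman's rho. Some genes that these rules name are not reported here. The genes, lists and markers were chosen with earlier results of these data known. Gene positions come from a GENCODE annotation of GRCm38.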

Additional observations from a re-analysis of the deposited data

Results flagged for a closer look

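Each of the 10 genes was examined in each group of 5 mice for a mouse far from the other 4, by Dixon's test at 95%, which chance flags in about 1 in 20 groups. Of the 80 sets, 14 had such a mouse. Many of them were in the same few mice. In WT combination mouse 5, Il2rb was at 163 CPM (next 59.5), Il4ra at 222 CPM (next 125) and Cish at 9.21 CPM (next 4.74), and Il15ra was low at 24.7 CPM (next 34.5). That mouse had the highest summed T cell and myeloid marker levels of all 40 mice. In anti-TGF-β mouse 2, Il7r was at 14.4 CPM, Il2rb at 82.2 CPM and Il4ra at 188 CPM, against at most 3.87, 43.0 and 92.6 CPM in the rest of its group, and its T cell marker sum, 214 CPM, was the next highest of the 40. In anti-PD-1 mouse 2, Il7r was at 21.7 CPM (next 5.75) and Il21r at 33.2 CPM (next 10.1), and in anti-TGF-β combination mouse 1 at 23.4 CPM (next 5.32) and 39.1 CPM (next 20.6). Il2rg in isotype control mouse 3 was at 36.9 CPM (next 28.5), Socs2 in isotype control mouse 5 at 14.2 CPM (next 10.8), and Socs2 in FcD combination mouse 1 was low at 8.07 CPM (next 9.82).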

How the results depend on the processing

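The count of genes with an adjusted p under 0.05 was 0 of 10 in the results given, and stayed at 0 with DESeq2's size factors, no filter, DESeq2 and library set as a covariate. With only the 2 groups in the model it was 2 of 10 in the FcD combination against the isotype control (Il21r and Il4ra, edgeR adjusted p = 0.0464 for each, against 1.30% of all genes). With each mouse left out, it was 0 to 2 over all 8 groups (2 without anti-PD-1 mouse 2, anti-TGF-β mouse 2, FcD combination mouse 2 or anti-TGF-β combination mouse 1, against 1.22%, 2.61%, 7.74% and 15.3% of all genes), 0 to 3 in the WT combination against anti-PD-1, and 0 to 1 in the anti-TGF-β combination against either control (Il2rg, 1 without anti-TGF-β combination mouse 1 and, for the isotype control, also without isotype control mouse 3, against 13.4%, 11.6% with anti-PD-1 as control, and 4.88%). In the WT combination against anti-PD-1, the 3 (Il7r, Il21r and Socs2) appeared without anti-PD-1 mouse 2, against 3.60% of all genes. The count with an unadjusted p under 0.05 ran, over the mice left out, from 1 to 9 in the WT combination against anti-PD-1 (1 without WT combination mouse 5, against 5.42% of all genes, 9 without anti-PD-1 mouse 2, against 25.6%), 2 to 7 in the FcD combination against anti-PD-1 (7 without anti-PD-1 mouse 2 or FcD combination mouse 2, against 20.2% and 25.2%, 2 without anti-PD-1 mouse 1 or 3 or FcD combination mouse 4, against 7.63%, 6.30% and 4.74%), 1 to 5 in the anti-TGF-β combination against anti-PD-1 (1 without anti-PD-1 mouse 1, against 19.3%, 5 without anti-PD-1 mouse 2, against 15.6%), 2 to 5 against the isotype control (2 without isotype control mouse 5 or combination mouse 1 or 5, against 13.9%, 29.8% and 12.2%), 0 to 2 with anti-TGF-β alone (2 without its mouse 3, against 4.80%) and 0 to 1 between the FcD and WT combinations (1 without WT combination mouse 5 or FcD combination mouse 1, against 5.35% and 1.51%). With only the 2 groups in the model it was 8 in the FcD combination against the isotype control, 3 in the WT combination and 1 in the anti-TGF-β combination against anti-PD-1, and 1 between the FcD and WT combinations, against 21.3%, 6.89%, 15.2% and 0.960% of all genes. Over the mice left out, the median log2 fold change of the 10 genes against the isotype control ran from 0.27 to 0.58 in the WT combination, 0.40 to 0.59 in the FcD combination and 0.16 to 0.48 in the anti-TGF-β combination. Apart from the groups and mice in these models, the causes were not tested. No fold change of the 10 genes with an unadjusted p under 0.05 changed its sign under the other models, tools and filters or with a mouse left out. Within libraries 41 to 60, 2 of them did, Cish in the WT combination against the isotype control (-0.03) and Stat5a in the WT combination against anti-PD-1 (-0.10). No paired analysis was possible because the labels number the libraries and not the replicates of a group. With 5 mice per group and wide spread between mice, differences like that of Il7r between the FcD and WT combinations cannot be resolved.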
